A study of Mus musculus with 6 samples.

Results

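The genes examined here are 10 genes by which T cells and natural killer (NK) cells are recognised, chosen by name: the CD3 chains *Cd3d*, *Cd3e* and *Cd3g*, the coreceptor chains *Cd4*, *Cd8a* and *Cd8b1*, the kinase gene *Lck*, and the cytotoxic genes *Gzma*, *Gzmb* and *Nkg7*. All 10 were among the 33924 genes of the deposited table. Total RNA was sequenced from RPE/choroid, the pigmented retinal pigment epithelium along with the vascular layer beneath it, of C57BL/6J mice with no transgene or treatment. There were 3 libraries from young mice, aged 1 to 2 months by the labels, and 3 from aged mice, given as 20 to 24 months in the titles and 22 to 24 months in the time label. Each library came from 2 eyes. The labels give the sex of every mouse as male, but male and female mice appear in the methods, which also put the young group at a somewhat higher age. The tissue was scraped from the eyecup, so it holds every cell type of that layer, leukocytes and blood included.

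T cells recognise peptides through an antigen receptor that carries no signalling tail of its own. The CD3 chains deliver the signal, CD4 or CD8 binds the presenting MHC molecule, and the kinase LCK, which is attached to the coreceptor tail, phosphorylates the CD3 chains. NK cells and cytotoxic T cells kill through granules that hold granzymes, which are serine proteases, and perforin, which lets them into the target cell. The healthy choroid is known to hold few lymphocytes beside many macrophages and mast cells.

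For each gene the value is the authors' mean of normalized counts over all 6 libraries, young and aged together, referred to below as the mean. The table held 0 columns of values per library. A level in young or aged mice, an SD over mice and a new test between the ages were therefore not computed. The table did hold the authors' own comparison of the ages, with a fold change and a p-value per gene, and those columns were not used. In a bulk sample, fewer cells of a type and less RNA per cell cannot be told apart. The means summed to 19192071 normalized counts, and 26681 genes were above 0. Of 7 RPE markers, 7 were above 0, and *Rpe65*, the retinoid isomerase of the RPE, had a mean of 43745.

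The number of counts behind each mean was read from the lowest values in the table. All 1338 genes with a mean above 0 but below the worth of 2 counts held 1 of 6 values, between 0.148 and 0.200, to within 1e-06. These are the amounts that 1 whole count in 1 library adds to the mean. Length-scaled values rounded to whole numbers would give the same steps, so the steps cannot show that a count is a read. The 1060 of these genes with an annotated length ran from 12 to 20803 bases, so short and long genes shared the same 6 values. The mean of *Gzmb* thus stood for about 38.7 to 52.1 counts over the 6 libraries, and that of *Cd4* for about 1210 to 1629. The 95% intervals given with the means are exact Poisson intervals on 6 times the mean, rounded to whole counts. These and the intervals of ratios treat each count as 1 read. All these intervals cover counting error only, not the difference between mice or between ages.

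All 10 genes were detected, and 9 of 10 had a mean of at least 10 normalized counts, against 67.4% of all genes above 0 and 84.1% of the protein-coding genes above 0. The place of the 10 genes among all genes depended on which genes were counted. The median of the 10 means was 29.3, compared with 15.4 over all 33924 genes, 82.1 over all genes above 0 and 333 over the 16447 protein-coding genes above 0. The 10 means summed to 486 of the 19192071 normalized counts, and *Cd4* alone made up 49.7% of that sum.

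**Figure D1:**
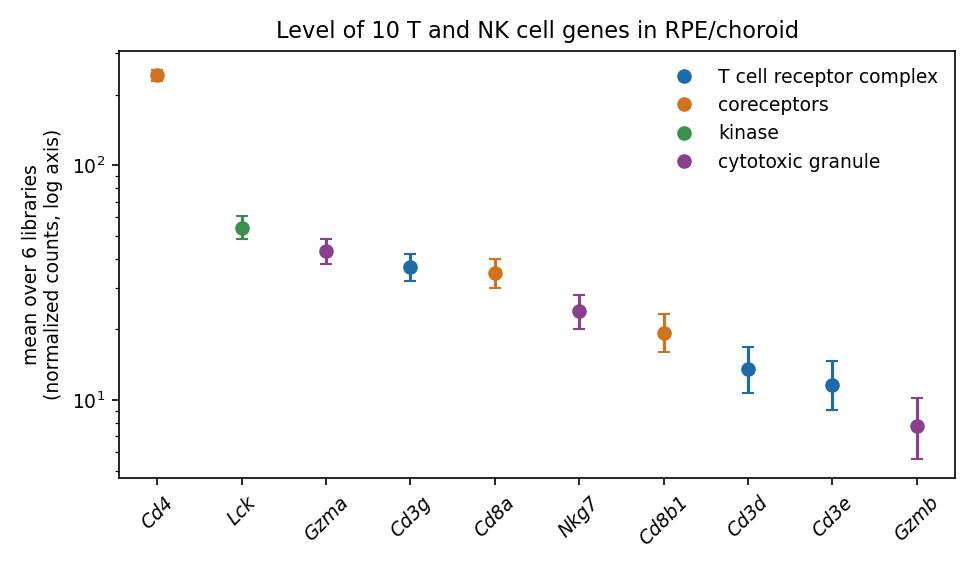
Mean over the 6 libraries of each of the 10 genes, in normalized counts on a log axis, with points coloured by role and bars for the 95% counting interval. *Cd4* stands at 241 above the other 9 genes, which run from 54.3 for *Lck* to 7.72 for *Gzmb*.

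The CD3 genes lie close together on chromosome 9 (GRCm38, GENCODE M21). *Cd3g* (44969572 to 44980431, minus strand) and *Cd3d* (44981786 to 44987339, plus strand) are transcribed away from each other from starts 1355 bases apart. *Cd3e* (44998740 to 45009627, minus strand) follows after a gap of 11400 bases. The bases before the starts of the divergent pair are shown because both genes begin within this short stretch yet differed in level. Capitals mark the E-box letters CAGNTG on either strand (CANCTG when read on the strand printed). The 250 bases before each start are printed 5′ to 3′ on the strand of the gene, from RefSeq promoters of GRCm38.p6, and are counted from the RefSeq start. Of the 10 genes, 8 had a sequence, in 9 windows as *Lck* has 2 starts, and *Cd4* and *Cd8b1* had none. The RefSeq start was the GENCODE start for *Cd3g*, *Cd3d*, *Cd8a*, *Gzma* and 1 start of *Lck*. It lay 74 bases upstream of it for *Gzmb*, and downstream of it by 16 bases for *Cd3e*, 65 for *Nkg7* and 15269 for the other *Lck* start.
Cd3g (chr9:44980432-44980681, minus strand): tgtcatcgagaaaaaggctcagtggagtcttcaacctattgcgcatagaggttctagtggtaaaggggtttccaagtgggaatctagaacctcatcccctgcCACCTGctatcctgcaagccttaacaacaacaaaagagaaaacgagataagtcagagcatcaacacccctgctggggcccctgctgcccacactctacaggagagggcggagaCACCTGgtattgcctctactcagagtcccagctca
Cd3d (chr9:44981536-44981785, plus strand): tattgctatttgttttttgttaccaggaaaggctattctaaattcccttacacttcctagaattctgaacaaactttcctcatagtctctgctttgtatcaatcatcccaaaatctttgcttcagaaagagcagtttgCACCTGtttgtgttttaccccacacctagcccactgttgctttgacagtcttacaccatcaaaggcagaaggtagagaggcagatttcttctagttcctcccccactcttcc

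The motif was present 2 times before *Cd3g*, 1 time before *Cd3d* and 0 times before *Cd3e*. It occurred in 6 of the 9 windows and in 44.8% of all 32851 windows of 250 bases. The letters TATAAA, on either strand, were found in 0 of the 9 windows and in 12.4% of all windows. TGTGGT, the core bound by RUNX factors, was found in 4 of the 9 windows and in 14.0% of all windows, and AGGAAG, an ETS core, in 5 of 9 and in 29.5%. Of the *Lck* windows, TGTGGT was in the one at the GENCODE start and CAGNTG in the other. A match of letters is a description of the sequence and no evidence of binding.

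*Cd3g*, the gamma chain, had the highest mean of the CD3 genes at 36.8 (95% counting interval 32.1 to 42.0). *Cd3d*, the delta chain, had 13.5 (10.7 to 16.8), and *Cd3e*, the epsilon chain that pairs with either of them, had 11.6 (9.09 to 14.7). The interval of *Cd3g* lay above those of the other chains, while those of *Cd3d* and *Cd3e* overlapped. The raw *Cd3g* mean was 2.73 times that of *Cd3d* (95% Clopper-Pearson counting interval 2.11 to 3.56) and 3.18 times that of *Cd3e* (2.40 to 4.19).

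Long transcripts give more reads than short ones, so genes were compared per kilobase of the longest annotated transcript. The methods derive the normalized counts from TPM values, which are already divided by length, and a second division would be wrong if that scaling remained. The shared steps were measured only at the lowest values and would also follow from rounding, so ratios of the raw means are given as well. On this scale *Cd3g* had 14.5 normalized counts per kilobase, *Cd3d* had 8.35 and *Cd3e* had 4.55. The *Cd3g* to *Cd3d* ratio per kilobase was 1.74 (1.34 to 2.27), and the *Cd3d* to *Cd3e* ratio was 1.84 (1.31 to 2.55). The longest transcripts of *Cd3g* (2539 bases) and *Cd3e* (2550 bases) retain an intron. With the longest protein-coding transcript, 1023 and 1462 bases, the *Cd3g* to *Cd3d* ratio was 4.31 and the *Cd3d* to *Cd3e* ratio was 1.05. The direction of *Cd3g* over the other chains was the same for each of the lengths used, but the size was not settled.

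*Cd4* was the most abundant of the 10 genes. It encodes the coreceptor of helper T cells and is also found on some dendritic cells and macrophages. It lies on chromosome 6 at 124864692 to 124888221 and had a mean of 241 (229 to 254), 4.45 times that of *Lck*, the next gene. It was the only one of the 10 above a mean of 100, and it ranked 10420th of the genes above 0. Per kilobase it had 77.7, again the highest value.

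*Cd8a* and *Cd8b1* encode the chains of CD8, the coreceptor of cytotoxic T cells, and lie on the same strand of chromosome 6, with *Cd8b1* at 71322788 to 71337494 and *Cd8a* at 71373427 to 71379173. *Cd8a* had a mean of 34.6 (30.1 to 39.7) and *Cd8b1* one of 19.3 (16.0 to 23.2). The raw ratio of *Cd8a* to *Cd8b1* was 1.80 (1.42 to 2.27), but per kilobase of the longest transcript it was 0.853 (0.674 to 1.08), an interval that includes equal levels. Per kilobase of coding sequence it was 1.55, so the order of the CD8 chains depends on the length chosen. The *Cd4* to *Cd8a* ratio per kilobase was 7.02 (6.06 to 8.15) but moved with the length, from 3.77 with the coding length to 14.3 with the mean transcript length. The raw ratio was 6.97 (6.02 to 8.10).

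*Lck*, on chromosome 4 at 129548344 to 129573641, had the next highest mean after *Cd4*, 54.3 (48.6 to 60.6). Per kilobase it had 24.8, between *Nkg7* and *Cd3g*. A microRNA gene, Mir8119, is annotated within *Lck* on the same strand. The kinase was thus more abundant per kilobase than each of the CD3 chains when the longest transcript was used, by counting intervals that did not overlap. With the longest protein-coding transcript *Cd3g* reached 36.0 and this order against *Lck* turned, as it did with the coding length, at 67.5 for *Cd3g* and 34.8 for *Lck*.

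Of the cytotoxic genes, *Gzma* (granzyme A) was the most abundant and *Gzmb* (granzyme B) the least. *Gzma* had a mean of 43.0 (37.9 to 48.6) and *Gzmb* one of 7.72 (5.61 to 10.2), the lowest of the 10 genes. Per kilobase *Gzma* exceeded *Gzmb* by 8.04 times (5.89 to 11.3), and the ratio stayed between 5.30 and 8.54 with the other lengths. The raw ratio was 5.57 (4.09 to 7.85). *Nkg7*, a membrane protein of cytotoxic granules, had a mean of 23.9 (20.1 to 28.1) and 27.1 per kilobase. The granzyme genes lie on different chromosomes, 13 for *Gzma* (113093825 to 113100981) and 14 for *Gzmb* (56258838 to 56262260), both on the minus strand. The bases before their starts are shown because these granzymes had the widest ratio of the 6 pairs of related genes compared per kilobase of the longest transcript, with the same letters in capitals.
Gzma (chr13:113100982-113101231, minus strand): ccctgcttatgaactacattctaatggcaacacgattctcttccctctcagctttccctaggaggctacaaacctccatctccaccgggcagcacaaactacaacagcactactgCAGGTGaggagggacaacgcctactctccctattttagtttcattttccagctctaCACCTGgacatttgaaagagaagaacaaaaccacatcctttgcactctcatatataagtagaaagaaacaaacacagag
Gzmb (chr14:56262335-56262584, minus strand): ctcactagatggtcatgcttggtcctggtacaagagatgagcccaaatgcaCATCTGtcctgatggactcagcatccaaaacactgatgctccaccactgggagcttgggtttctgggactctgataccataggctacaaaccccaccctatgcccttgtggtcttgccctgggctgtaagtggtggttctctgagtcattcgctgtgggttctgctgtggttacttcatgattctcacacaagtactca

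The E-box letters were present 2 times before *Gzma* and 1 time before *Gzmb*. TGTGGT was present 1 time before *Gzma* and 2 times before *Gzmb*, on either strand.

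**Figure D2:**
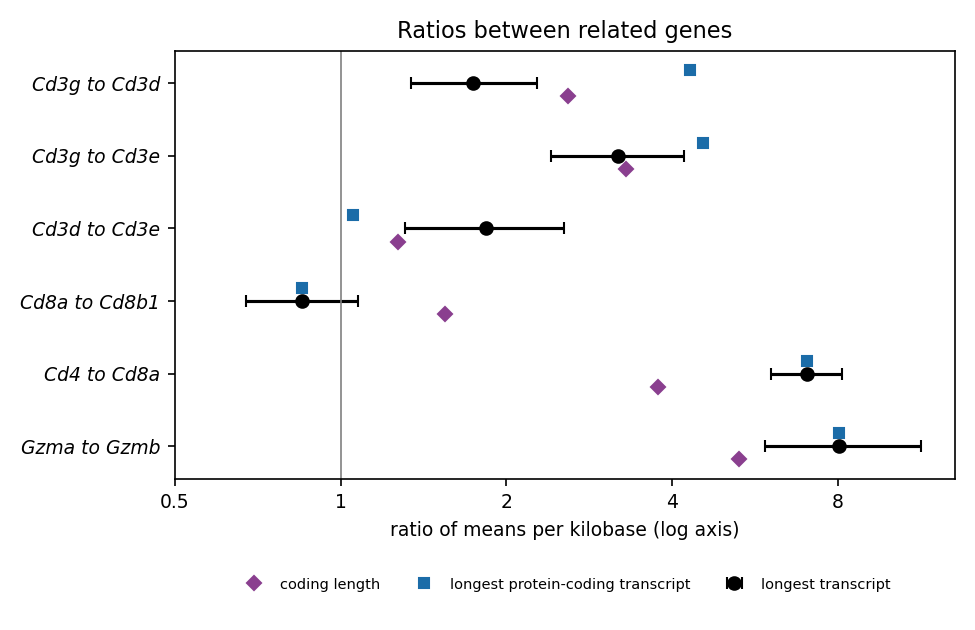
Ratio of the means per kilobase for 6 pairs of related genes on a log axis, with black points and bars for the longest transcript and its 95% counting interval, diamonds for the coding length and squares for the longest protein-coding transcript. *Cd8a* to *Cd8b1* crosses a ratio of 1 between lengths, and *Gzma* to *Gzmb* stays above 5.

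Read in order of the mean, *Cd4* was followed by *Lck*, *Gzma*, *Cd3g*, *Cd8a*, *Nkg7*, *Cd8b1*, *Cd3d*, *Cd3e* and *Gzmb*. The counting intervals of neighbours were separate between *Cd4* and *Lck*, between *Lck* and *Gzma* and between *Cd8a* and *Nkg7*, and overlapped for the other 6 neighbours. Leaving out *Cd4*, the highest mean was 7.03 times the lowest. Per kilobase the order was *Cd4*, *Gzma*, *Nkg7*, *Lck*, *Cd3g*, *Cd8b1*, *Cd8a*, *Cd3d*, *Gzmb* and *Cd3e*. All neighbours from *Cd3g* down had overlapping counting intervals. The whole range per kilobase was 17.1 times. No likeness of pattern to other genes could be given, as 1 value per gene holds no pattern over samples.

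**Figure D3:**
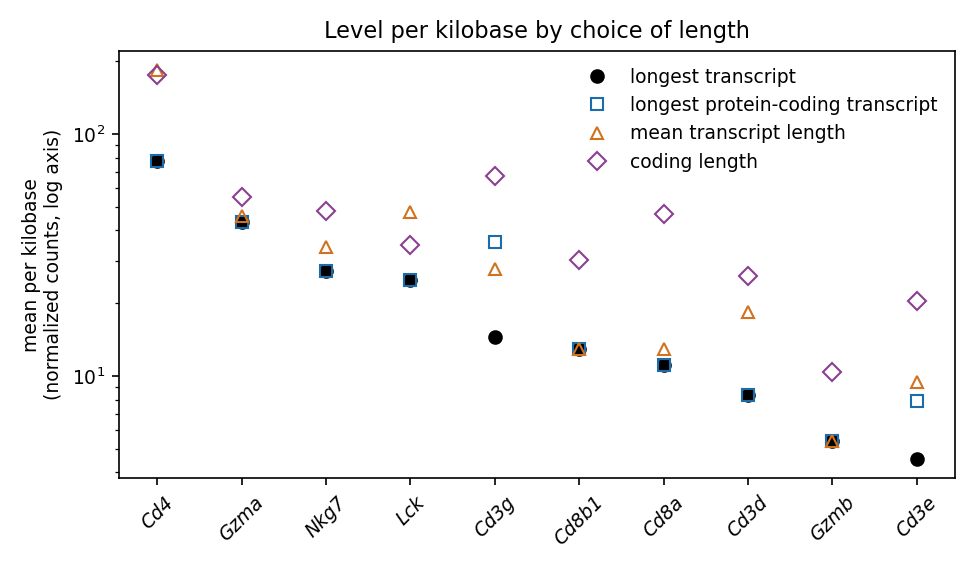
Mean per kilobase of each gene, in normalized counts on a log axis, with 1 marker for each of the 4 lengths used. *Cd4* is highest with every length and stands at 77.7 with the longest transcript, whereas the places of *Cd3g* (14.5 to 67.5) and *Cd8a* (11.1 to 46.7) move with the length.

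Reads that fit several genes could blur such low values. The share of 31-base words of a gene's transcripts that occur in no other gene was 100% for *Gzma*, *Nkg7* and *Lck* and at least 98.1% for 9 of the 10 genes. *Cd8b1* was lower, with 91.6%, and shared words with 719 genes. *Gzmb* shared 1.35% of its words with *Gzmc*, its neighbour on chromosome 14, and with no other gene. The span of *Cd3e* overlaps those of Gm48720, a gene model on the same strand, and Gm48719, an antisense gene. Its transcripts had 99.95% of their words to themselves and shared the rest with 1 gene, Dlx6os1, so none with Gm48720. The kit marks the strand, but whether strand was used in the counting was not given in the sources used here.

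Of the 5 genes that complete the antigen receptor, 4 were in the table and 3 had a mean of at least 10. By mean, *Cd247*, the zeta chain of the receptor, was the highest with 25.6, and *Trac*, the constant part of the alpha chain, the lowest with 9.42. Per kilobase *Trbc2*, named after its values were seen, was the highest with 34.4, and *Cd247* the lowest with 8.66. The median of these 4 partners per kilobase was 15.1, against 13.7 for the 10 genes, but their median mean was 19.3, against 29.3, so the order turned with the scaling. Of the 18 T cell signalling genes, 4 lay above *Cd4* per kilobase and 14 above *Cd3e*, the lowest of the 10. The 4 were *Prkcq* (600), *Ptprc* (380), *Csk* (293) and *Fyn* (196), with *Csk* and *Fyn* named after their values were seen. In a bulk sample, their levels cannot be assigned to T cells. All 18 signalling genes had a median of 16.8 per kilobase and a median mean of 39.3. As means they ran from 2.85 for *Ctla4*, an inhibitory receptor, to 2381 for *Prkcq*, a protein kinase C gene. *Ptprc*, the gene of CD45 on all leukocytes, had a mean of 2179, which was 74.5 times the median mean of the 10 genes.

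*Prf1*, the perforin gene, had 5.39 per kilobase, near the 5.38 of *Gzmb*, but its mean of 13.3 was above the 7.72 of *Gzmb*. The 12 granule partners had a median of 131 per kilobase and a median mean of 196, and 6 of them lay above *Cd4* per kilobase. These were *Lamp1* (5435), *Rab27a* (1784), *Ctsc* (1078), *Srgn* (537), *Serpinb9* (300) and *Gzmm*. Their levels cannot be assigned to cytotoxic cells in a bulk sample, and neither can the list median. Per kilobase, 8 of the 12 lay above the median of the 10 genes, 13.7, while *Prf1*, *Gzmc*, *Gzmk* and *Fasl* lay below it. By mean, the highest of the 12 was *Lamp1*, a lysosomal membrane protein of most cells, with 12115, and the lowest was *Gzmc* with 6.26. Per kilobase *Lamp1* was again the highest, but *Prf1* was the lowest. *Gzmm*, the gene of granzyme M and named here after its values were seen, was among the 6, with a mean of 290 and 226 per kilobase. The 9 NK receptor genes had a median of 9.39 per kilobase and a median mean of 25.2, and 0 of them lay above *Cd4*. *Ncr1*, the receptor NKp46 that marks NK cells, had a mean of 5.91, and *Klrb1c*, the NK1.1 antigen of C57BL/6 mice, one of 8.71. By mean, the highest NK receptor was *Cd244* with 53.1 and the lowest *Klra8* with 2.45. Per kilobase *Klrd1*, named after its values were seen, was the highest with 27.5, above the 14.1 of *Cd244*. The 10 lymphocyte transcription factors ran from 3.91 for *Gata3* to 688 for *Zbtb7b*. Their median lay below that of the 10 genes per kilobase, at 8.01, and above it as a mean, at 38.2. *Zbtb7b* directs the helper lineage in T cells and is used by other cell types too.

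All 10 macrophage markers lay above *Cd4* per kilobase, and their median, 914, was 66.5 times that of the 10 T and NK cell genes. One of them, *Mertk*, is also the receptor by which the RPE takes up photoreceptor outer segments, so its level cannot be assigned to macrophages. Without it the median of the other 9 was 964, or 70.1 times that of the 10 genes. They ran from a mean of 303 for *Aif1* to 4063 for *Csf1r*, the receptor of a macrophage growth factor. Mast cell markers had a median of 170 per kilobase, with means from 37.8 (*Ms4a2*) to 361 (*Cma1*). B and plasma cell markers had 36.9, from *Pax5* at 6.81 to *Ighm* at 714, and dendritic cell markers 21.3, from *Siglech* at 32.1 to *Zbtb46* at 538.

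Of 6 blood markers, 4 were found in the table, from *Ppbp* of platelets at 35.2 to the globin gene *Hba-a1* at 2316. The part of circulating lymphocytes in the levels of the 10 genes was not tested. Neutrophil markers were mostly near or at 0: 5 of 6 were above 0, and 2 reached a mean of 10, with *Csf3r* at 132, *Ly6g* at 0.296 and *Mpo* listed at 0. Endothelial markers ran from *Cdh5* at 1025 to *Kdr* at 6377, RPE markers from *Best1* at 69.8 to *Ttr* at 99321, and melanocyte markers from *Mlana* at 7838 to *Dct* at 89145. The melanocyte list holds pigment genes that the RPE also expresses, so its levels cannot be assigned to melanocytes. Per kilobase, the medians of the endothelial, RPE and melanocyte lists were 36.8, 1021 and 1588 times that of the 10 genes. The median means of these lists, not divided by length, were 2249, 30062 and 57664, against 29.3 for the 10 genes. On the same scale the median was 2747 for the macrophage list, 198 for mast cells, 68.5 for B and plasma cells and 50.2 for dendritic cells.

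**Figure D4:**
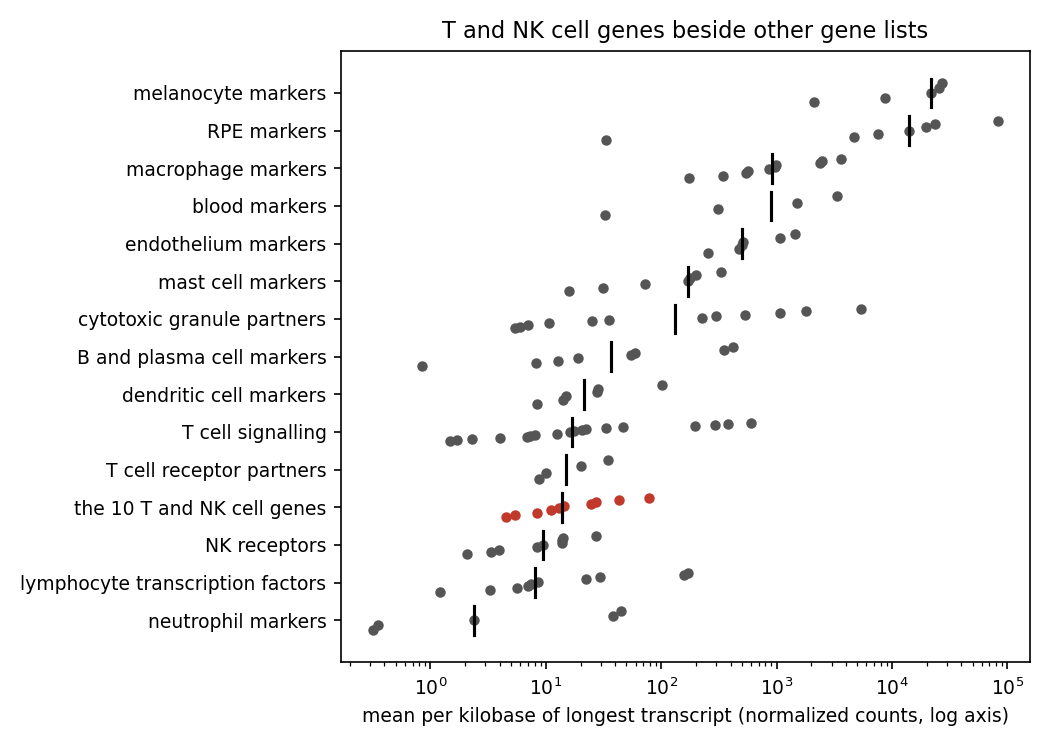
Mean per kilobase of the longest transcript, in normalized counts on a log axis, for each gene above 0 of 15 lists, with 1 point per gene, black bars for list medians and the 10 T and NK cell genes in red. The red points lie from 4.55 to 77.7, among the receptor partners, signalling genes and NK receptors and below all 10 macrophage markers.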

How the data were processed

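Per the labels, total RNA was freed of ribosomal RNA with no poly(A) selection and made into stranded libraries. The authors trimmed read pairs with BBDuk, mapped them with STAR to Ensembl transcripts of GRCm38, estimated TPM values with Sailfish, transformed these to normalized counts with a total count method and ran DESeq2. Whether length scaling was undone in that transformation was not given in the sources used here. The deposited table gives each gene a baseMean, a signal of normalized counts averaged over all 6 libraries, which was used as deposited. Its 5 columns of the authors' comparison of young and aged mice (log2 fold change, standard error, test statistic, p-value and adjusted p-value) were not used, and 0 columns held values per library.

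Members and lists were chosen with earlier results of these data known. The 14 lists beside the members held 115 genes, of which 112 were found, 2 by an older symbol. The rule named all members, the highest and lowest gene of each list, and 7 others fixed by name. Genes of 28514 rows were matched to GENCODE M21 (GRCm38) for lengths and positions. For genes with a coding sequence and a mean of at least 10, the median mean rose from 213 to 1201 from the shortest to the longest of 10 equal-sized bins of transcript length. Computations used Python 3.11.15 and scipy 1.17.1. The recovery of the steps and of percentile ranks was tested on simulated data, and word counts were not. No test was run, as 1 pooled value per gene has no replicate error.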

Additional observations from a re-analysis of the deposited data

How the results depend on the processing

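No paired analysis was possible because young and aged libraries were averaged into 1 value per gene. The planned edgeR comparison of the ages, its DESeq2 and unfiltered alternatives and the fits without 1 library were not run either. The use of the longest protein-coding transcript and the macrophage median without *Mertk* were chosen after seeing the data.

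The median percentile of the 10 genes was 41.6 among genes above 0, 54.1 among all listed genes, 22.0 among protein-coding genes and 13.4 among genes with a mean of at least 10. Their median per kilobase was 13.7 with the longest transcript, 18.9 with the longest protein-coding transcript, 23.1 with the mean length and 40.8 with the coding length. A limit of 30 left 5 of the 9 genes and a limit of 100 left 1, stricter by construction. The number of lists with a median mean below that of the 10 genes was 3 whether or not genes at 0 or not found were counted. The macrophage median per kilobase was 914 with *Mertk* and 964 without it.

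The *Cd8a* to *Cd8b1* ratio of 0.853 turned to 1.55 with the coding length and to 1.80 with no length scaling. *Cd3g* to *Cd3d* moved from 1.74 to 2.59 (coding), 2.73 (no scaling) and 4.31 (protein-coding transcript), and *Cd3g* to *Cd3e* from 3.19 to 4.54 with the last. *Cd3d* to *Cd3e* moved from 1.84 to 1.27, 1.17 and 1.05 in the same order. *Cd4* to *Cd8a* moved from 7.02 to 3.77 (coding) and 14.3 (mean length), and *Gzma* to *Gzmb* from 8.04 to 5.30 (coding) and 5.57 (no scaling). The other 11 ratios stayed within the counting interval of the main value. Differences between mice and between ages are not covered by any of these intervals.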

Other observations

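A pair of values, chosen after they were seen, stood far from those of genes with a like use. *Gapdh*, a glycolytic enzyme gene of nearly all cells, had a mean of 158, against 30341 for *Actb*, the beta-actin gene. *Gapdh* had 72.8% of its 31-base words to itself and shared 26.5% with 1 pseudogene, Gm7336, while *Actb* had 76.5% to itself. *Best1*, an RPE chloride channel gene with 98.8% of its words to itself, had a mean of 69.8 beside 43745 for *Rpe65*. The 10 T and NK cell genes had from 91.6% to 100% of their words to themselves. Given the values of *Best1* and *Actb*, this share does not vouch for a level. The cause of the low *Gapdh* and *Best1* values was not tested.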
